A study of Ovis aries with 26 samples.

Results

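The transcripts of 44 genes that make ribosomes were followed through the first days of sheep development. The genes are those of the deposited table whose symbols begin with UTP, NOP or RRP and a digit, the RNA polymerase I subunits POLR1A to POLR1H, and GRWD1, PWP2, MRTO4, NCL, NPM1, FBL, DKC1, BOP1, WDR12 and PES1. They are 44 of the 30186 genes in the table, and all 44 symbols matched a protein-coding gene of the RefSeq sheep gene table. They were chosen by symbol and not by a cut on measured values, but with earlier results of these data known. The study profiled poly(A) RNA of oocytes and cultured embryos of the sheep (Ovis aries), under a title that names RNA splicing and alternative polyadenylation at zygotic genome activation. The 8 groups are stages: mature oocytes (MII, 2 libraries), embryos of 2, 4, 8 and 16 cells (2C, 4 libraries; 4C, 3; 8C, 4; 16C, 3), morulae (Morula, 3), early blastocysts (EarlyB, 3) and expanded blastocysts (ExpB, 4). All embryos came from in vitro fertilisation of matured oocytes and were grown in a commercial culture medium, so no stage from the oviduct or uterus stands beside them. Oocytes or embryos were lysed directly and their RNA was copied with the Smart-seq2 method, which amplifies full-length cDNA from very little RNA. How many oocytes or embryos each library holds, and whether libraries of a stage came from separate animals or cultures, is not stated in the sources used here.

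Ribosomes are built in the nucleolus. RNA polymerase I copies the ribosomal DNA into a long precursor RNA, small nucleolar ribonucleoproteins (snoRNPs) guide the modification of its bases and sugars, and large sets of assembly factors fold and cut it into the RNA of the small and the large subunit. Fully grown oocytes carry a large store of ribosomes and largely stop making new ones. Embryos make ribosomal RNA again after their own genome has been activated, which in sheep takes place around the 8-cell to 16-cell stages.

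Levels are FPKM, sequenced fragments divided by gene length in kilobases and by 1e6 assigned fragments, which lets genes of unequal length be set beside each other. A library held between 16.0 and 35.6 assigned reads (in 1e6), with the lowest in EarlyB (16.0 to 19.9). Within a stage, libraries correlated at 0.913 or more, and the lowest values were those of the library 16C 3 with 16C 1 (0.913) and 16C 2 (0.923). The 16C libraries also differed in 3 genes that mark genome activation (ZSCAN4, KLF17 and ARGFX), whose summed FPKM was 317, 481 and 1716, against 29.7 to 238 in 8C and 755 to 1164 in morulae. Markers of the oocyte and the trophectoderm followed the stage labels: the summed FPKM of 6 oocyte genes was 2994 or more in every library through 16C, 295 to 407 in morulae and 2.68 to 11.6 in ExpB. That of 4 trophectoderm genes was 517 to 751 in EarlyB and 743 to 2047 in ExpB, and at most 25.9 in the libraries of earlier stages. Genes of the inner cell mass were less uniform. In EarlyB and ExpB mean FPKM was 48.0 and 35.3 for POU5F1, 1.37 and 19.6 for NANOG, and 1.36 and 0.0599 for SOX2. The sperm gene PRM2 was at 0 in every library through 16C and had a mean of 9.02 FPKM in morulae. Genes of cumulus and granulosa cells, which surround the oocyte, summed to 4.43 to 6.97 in MII, 41.0 to 187 in 2C and 132 to 298 in 4C over the 7 found in the table, mostly LUM. Among the defining genes of these cells, mean FPKM in MII and 4C was 0.0374 and 5.32 for FSHR, 0.129 and 2.12 for INHA, and 0.0519 and 0.369 for FOXL2, while AMH was at 0 in all MII and all 4C libraries. The part of these differences in the results was not tested. All differences were taken between means of log2(FPKM + 1), and the added 1 makes them too small for genes near or below 1 FPKM. A gene is called higher or lower when limma's adjusted p was under 0.05 and the difference was at least 1, and "rose" and "fell" are used of such genes. Each p-value weighs a difference against the scatter of libraries within stages, pooled over all 8 stages, and that scatter may be technical. Where the libraries of a stage are more scattered than the others, as in 16C for many genes, its p-values can be too small.

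The 44 genes ran from scarce to among the most abundant of their kind. NPM1 had the highest mean over the 8 stages (1203 FPKM), followed by UTP11 (552 FPKM), and RRP7A the lowest (0.757 FPKM). In MII oocytes 30 and 32 of the 44 genes reached 1 FPKM, in 2C embryos 33 to 37, in 16C embryos 37 to 41, in morulae 43 to 44 and in EarlyB all 44. The number of genes at 1 FPKM or more also grew over all 30186 genes. It was 8496 and 8644 in MII, 8972 to 9562 in 2C and 9698 to 9894 in 16C. Morulae had 11498 to 11705 such genes and EarlyB 12080 to 12149. The median gene of the set stood at 6.23 and 6.91 FPKM in the MII libraries, at 21.9 to 24.0 in morulae and at 9.40 to 10.7 in ExpB. There were 26 genes of the set at 1 FPKM or more in every library. BOP1, GRWD1, PWP2, RRP12 and RRP7A were below 1 FPKM in every MII, 2C and 4C library. GRWD1 and PWP2 were the first of these to reach 1 in all libraries of a stage, at 16C, then BOP1 and RRP12 in morulae and RRP7A in EarlyB.

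The stage with the highest mean was EarlyB for 20 of the 44 genes (45.5%) and Morula for 14 (31.8%), against 27.7% and 20.1% of all 15766 genes tested. A minority peaked in the oocyte or the cleaving embryo. NPM1, RRP1B, UTP18, UTP23 and UTP25 peaked in MII, UTP20 in 2C, POLR1E, UTP14A and UTP14C in 8C, and UTP11 in 16C. No gene of the set peaked in ExpB, where 14.1% of all tested genes did. The widest ranges of stage means, highest over lowest, were those of BOP1 (232.6-fold), MRTO4 (130-fold), WDR12 (117-fold), GRWD1 (105-fold) and NOP2 (63.7-fold), all of them factors of the large subunit. Their lowest means were all in MII (2 libraries) and below 1 FPKM, from 0.0493 for BOP1 to 0.753 for NOP2, so these ratios are uncertain.

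**Figure D1:**
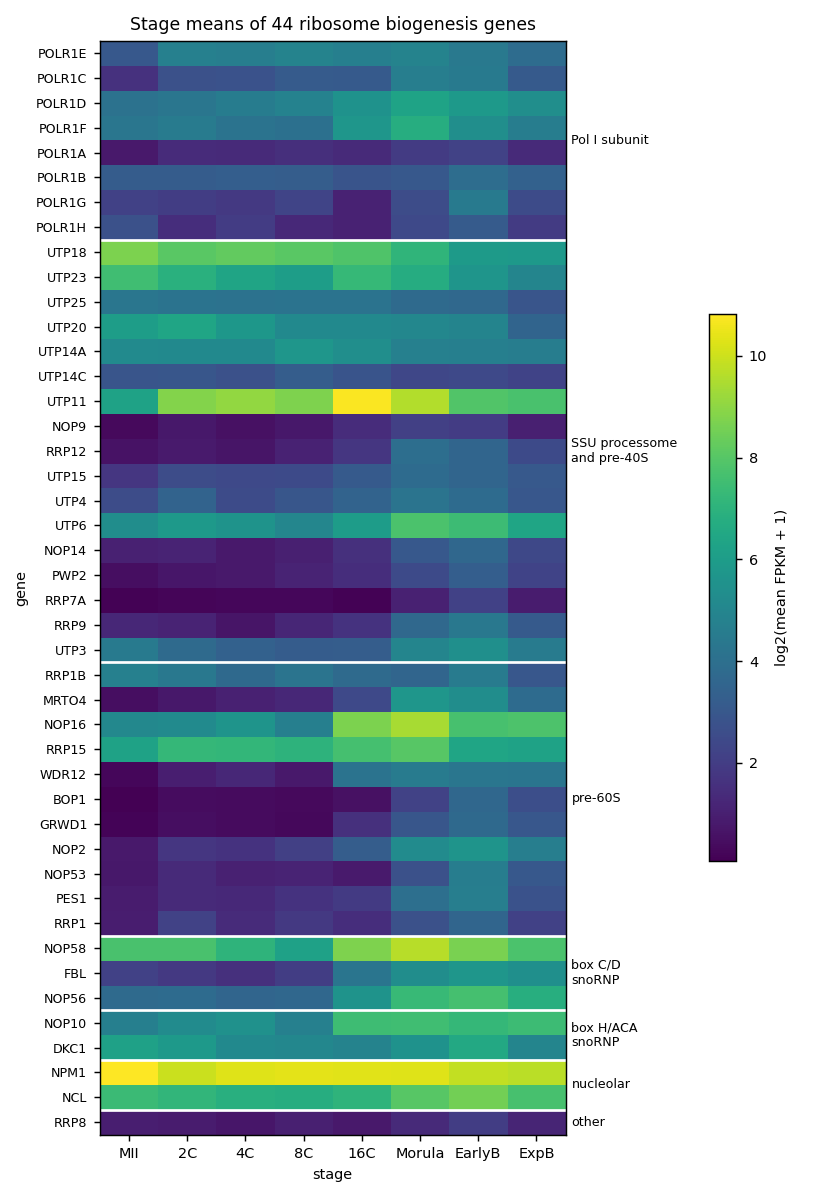
Stage means of the 44 genes as log2(mean FPKM + 1), genes in rows and the 8 stages in columns. Most rows are brightest in morulae or EarlyB. NPM1 is bright at all stages, while UTP18 and UTP23 are brightest in MII and dimmest in ExpB.

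Changes came in steps. From MII to 2C, 4 of the 44 genes rose (9.09%, beside 4.44% of all tested genes called higher) and none fell by the call rule (2.01% of all tested genes). They were UTP11, POLR1E, RRP1 and POLR1C. From 2C to 4C no gene of the set was called in limma's test, where 0.00634% of all tested genes were called. An unadjusted p under 0.05 was reached by 7 of the 44 genes, beside 1329 of all 15766 tested genes. From 4C to 8C again none was called, beside 0.577% of all tested genes called higher and 0.33% lower. Here 7 of the 44 genes had an unadjusted p under 0.05, beside 2460 of all 15766 tested genes. From 8C to 16C 11 genes rose (25%, beside 5.54%) and POLR1G fell (2.27%, beside 2.01%). Those that rose were NOP16, NOP10, WDR12, NOP58, FBL, NOP56, UTP11, POLR1F, GRWD1, UTP23 and NOP2. From 16C to Morula 20 genes rose (45.5%, beside 28.1%) and none fell, where 15% of all tested genes were called lower. The median difference of the 44 genes at this step was 0.97, against 0.32 over all tested genes.

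From Morula to EarlyB 4 genes rose (9.09%, beside 14.7%) and 7 fell (15.9%, beside 12.4%), both shares close to those of all tested genes. From EarlyB to ExpB none rose, where 4.65% of all tested genes did, and 17 fell (38.6%, beside 13.1%), with a median difference of -0.85 against -0.30 over all tested genes. Over the whole span from 2C to Morula 24 genes were higher (54.5%, beside 32.2%) and 2 lower (4.55%, beside 17.6%), with a median of 1.17 against 0.36. A larger share of bulk RNA can come from more RNA per cell or from more cells of a type, and these cannot be told apart here. Scaling moved the balance at some steps. From MII to 2C, 3 genes were higher and 2 lower after median-ratio scaling and 2 higher and 1 lower after quantile normalization. From 16C to Morula, 17 were higher and 2 lower on the TPM scale, and 15 higher and 2 lower after quantile normalization. From Morula to EarlyB, quantile normalization gave 5 higher and 4 lower. From EarlyB to ExpB, the falls of BOP1, NOP14, POLR1C, POLR1H, PWP2, RRP12, RRP7A, RRP9 and UTP6 lost their call after median-ratio scaling. That scaling took the count of all tested genes called lower at this step from 2060 to 915. The median of all tested genes from 16C to Morula was 0.32 as deposited and -0.01 after quantile normalization, from EarlyB to ExpB it moved from -0.30 to -0.08 after median-ratio scaling, and from 2C to Morula from 0.36 to -0.02 after quantile normalization.

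**Figure D2:**
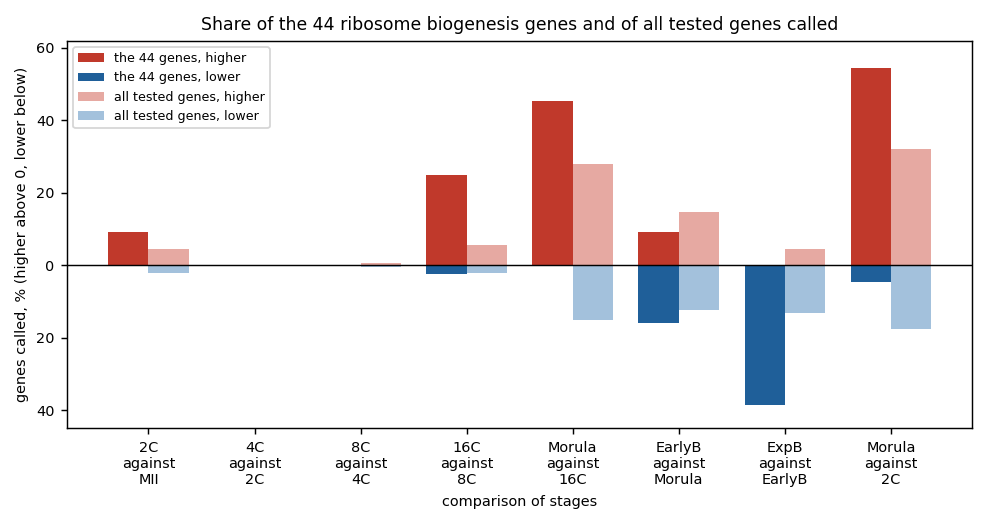
Share (%) of the 44 genes and of all 15766 tested genes called higher (above 0) or lower (below 0) in each comparison of stages. The bars of the 44 genes exceed those of all tested genes for higher calls from 8C to 16C (25% beside 5.54%) and from 16C to Morula (45.5% beside 28.1%), and for lower calls from EarlyB to ExpB (38.6% beside 13.1%).

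RNA polymerase I begins the pathway. Of its 8 subunits in the set, 2 rose from MII to 2C (25%, beside 4.44% of all tested genes), and 1 rose and 1 fell from 8C to 16C (12.5% each, beside 5.54% and 2.01%). Into the morula 4 rose (50%, beside 28.1%), and from EarlyB to ExpB 3 fell (37.5%, beside 13.1%). Between Morula and EarlyB 1 rose and 1 fell (12.5% each), close to the 14.7% and 12.4% of all tested genes. POLR1A, the largest subunit and part of the catalytic centre, was the scarcest, at 0.530 and 0.954 FPKM in MII and 3.44, 2.71 and 4.69 in EarlyB. POLR1B, its catalytic partner, stayed between 4.70 FPKM (a 16C library) and 17.0 FPKM (an EarlyB library). Neither of the catalytic subunits was called in any of the 8 comparisons.

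POLR1E, which forms a subcomplex with POLR1G that takes part in initiation and elongation, rose early. It had 6.78 and 7.69 FPKM in the 2 MII libraries and 29.79, 20.87, 25.997 and 25.92 in the 4 2C libraries. The groups did not overlap, and the rise was 3.55-fold in mean FPKM (difference 1.69 ± 0.25 SE, limma, adjusted p = 0.00017). From 2C to Morula its stage means then lay between 24.3 and 28.7 FPKM with no further call, and in ExpB it had 11.1 to 16.6 FPKM. Poly(A) tail length, which poly(A) capture can depend on, was not measured.

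Its partner POLR1G was called at the 4 steps from 8C to ExpB. It had 4.60, 5.36, 1.49 and 3.84 FPKM in 8C and 0.906, 1.40 and 1.10 in 16C, its lowest stage, with no overlap (-1.10 ± 0.25 SE, limma, adjusted p = 0.0034). Without 8C 1 or 8C 2 the difference was -0.998 or -0.937, and the call was lost. It then stood at 5.21, 5.00 and 4.57 FPKM in morulae (1.48 ± 0.26 SE, adjusted p = 4.2e-05) and at 21.8, 20.9 and 22.9 in EarlyB, 4.43-fold higher (1.95 ± 0.26 SE, adjusted p = 2.9e-06). All 4 ExpB libraries were back at 4.06 to 5.99 FPKM (-2.01 ± 0.25 SE, adjusted p = 1.6e-06). The EarlyB mean was 21.8 ± 0.981 (SD, n = 3), and POLR1G had the largest called rise of the 44 genes into EarlyB and the largest called fall out of it.

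POLR1F, a subunit of the stalk that contacts the initiation factor RRN3, peaked in morulae. It had 20.0, 16.1, 12.0 and 14.5 FPKM in 8C, 17.5, 38.7 and 97.8 in 16C and 81.1, 116 and 126 in morulae. The 16C libraries overlapped both neighbours, with 16C 1 inside the 8C range and 16C 3 inside the Morula range. The call from 8C to 16C (1.35, limma, adjusted p = 0.0065) was lost without 16C 3 (0.72, adjusted p = 0.063), and the call from 16C to Morula (1.35, adjusted p = 0.0019) was lost without 16C 1 (0.77, adjusted p = 0.025, under the minimum difference of 1). In EarlyB it had 45.6, 31.4 and 43.3 FPKM, below every morula (-1.39 ± 0.35 SE, adjusted p = 0.0023).

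POLR1C and POLR1D, the pair shared with RNA polymerase III on which both enzymes are assembled, were both higher in Morula than in 2C. POLR1C had 1.76 and 2.37 FPKM in MII and 4.50 to 6.86 in 2C (1.12 ± 0.24 SE, limma, adjusted p = 0.0042). This call was lost without MII 1 (0.98, adjusted p = 0.16) and after median-ratio (0.94) or quantile scaling (0.82). It had 8.69, 4.64 and 9.61 FPKM in 16C and 20.9, 26.9 and 25.5 in morulae, which did not overlap (1.60 ± 0.23 SE, adjusted p = 2.7e-06). EarlyB libraries had 23.8, 15.2 and 24.3 FPKM and ExpB libraries 6.77 to 8.47 (-1.32 ± 0.21 SE, adjusted p = 4.5e-05). After median-ratio scaling that fall was under the minimum difference (-0.96). POLR1D had no called step between neighbouring stages but stood at 14.0 to 27.2 FPKM in 2C and 96.8, 73.1 and 66.9 in morulae (2.05 ± 0.24 SE, adjusted p = 9.9e-08).

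POLR1H, which helps the enzyme cut back and release stalled RNA, was low throughout. It had 0.955 to 1.29 FPKM in 16C and 6.28, 3.54 and 3.58 in morulae, with no overlap (1.31 ± 0.41 SE, limma, adjusted p = 0.0072). Libraries of EarlyB had 5.24, 12.1 and 6.32 FPKM and those of ExpB 1.14 to 4.58 (-1.24 ± 0.38 SE, adjusted p = 0.012). That fall was lost without EarlyB 2 (-0.92, adjusted p = 0.091) and without ExpB 4 (-0.99, adjusted p = 0.049). Median-ratio (-0.91) and quantile scaling (-0.90) also ended the call. The difference of POLR1H from 2C to Morula was at the threshold (1.002, adjusted p = 0.022) and was lost without 2C 2 (0.98), 2C 4 (0.80) or Morula 1 (0.78). It was also under the minimum on the TPM scale (0.75) and after median-ratio (0.76) or quantile scaling (0.38).

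**Figure D3:**
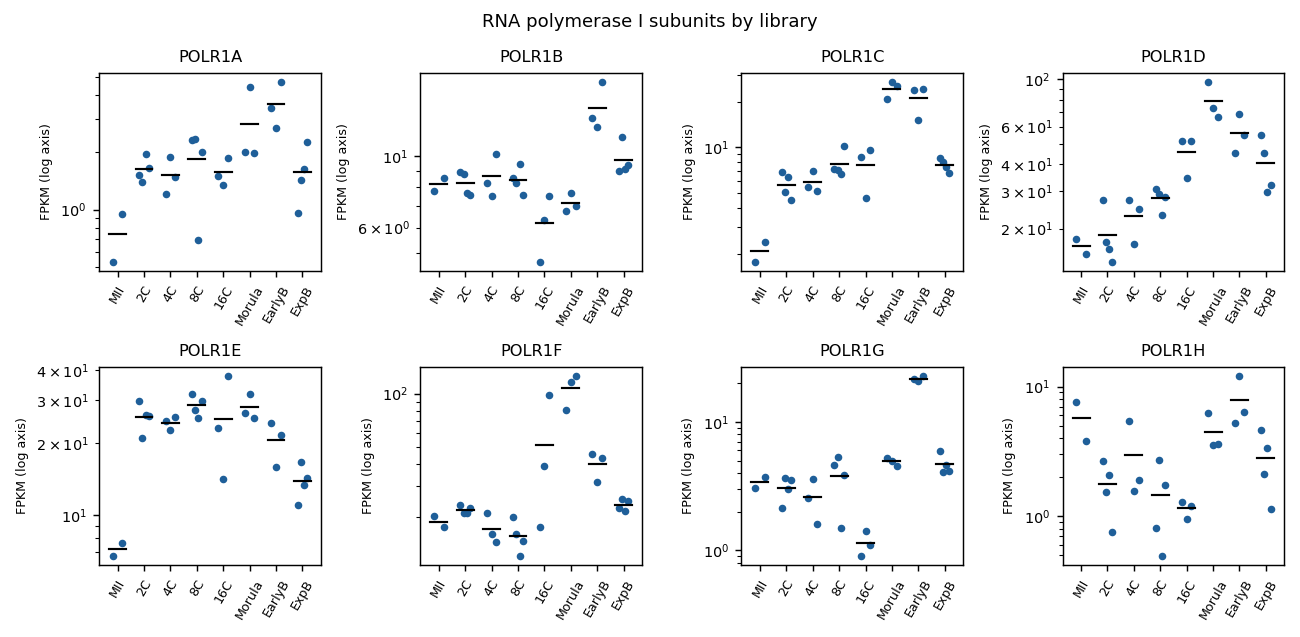
FPKM (log axis) of the 8 RNA polymerase I subunits in each of the 26 libraries, by stage, with points for libraries and bars for stage means. POLR1E steps up between MII and 2C, POLR1F is spread from 17.5 to 97.8 in 16C, and POLR1G has a single high stage, EarlyB.

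A list of 16 further genes held initiation factors of RNA polymerase I and broader regulators of its transcription, among them a terminator (TTF1), a silencing factor (BAZ2A) and the MYC family. Of these 16 genes 3 rose and none fell from 8C to 16C (18.8%, beside 5.54% of all tested genes). Into the morula 6 rose and 2 fell (37.5% and 12.5%, beside 28.1% and 15%), and from Morula to EarlyB 4 rose and 2 fell (25% and 12.5%, beside 14.7% and 12.4%). In ExpB 1 rose and 9 fell (6.25% and 56.2%, beside 4.65% and 13.1%). UBTF, which binds the ribosomal DNA promoter, had stage means between 1.39 FPKM (4C) and 3.54 (EarlyB) and was not called. Its difference from Morula to EarlyB was 0.88 (limma, adjusted p = 0.00033) and from EarlyB to ExpB -0.87 (adjusted p = 0.00027), both under the minimum difference. RRN3, which makes the polymerase competent to initiate, had 15.2 to 23.6 FPKM in stage means up to EarlyB and fell to 7.99 ± 1.58 (SD, n = 4) in ExpB (-1.19, adjusted p = 0.00015). TAF1D, a subunit of the promoter selectivity factor, rose at both steps from 8C to Morula (1.25 and 1.23), while its partner TAF1A fell from 16C to Morula (-1.36) and to EarlyB (-1.60). TCOF1, a nucleolar cofactor of ribosomal DNA transcription, rose to 11.1 ± 0.666 FPKM (SD, n = 3) in EarlyB and fell in ExpB (-1.47).

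MYC, a transcription factor known to drive ribosome production, rose from 8C to 16C (2.60, limma, adjusted p = 0.00011) and fell from 16C to Morula (-3.04, adjusted p = 3.6e-06). Its 16C libraries were uneven, at 19.8 ± 16.8 FPKM (SD, n = 3). From EarlyB to ExpB, where 17 of the 44 genes fell, MYC rose (2.24, adjusted p = 0.00019). Its relative MYCN was below 0.1 FPKM on average through 8C and rose at 16C (1.25), Morula (1.26) and EarlyB (1.19).

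Subunits of the other nuclear polymerases were read for comparison. From 16C to Morula 5 of 7 subunits of RNA polymerase II rose and 1 fell, 4 of 10 of RNA polymerase III rose and 1 fell, and 4 of the 5 subunits common to the 3 enzymes rose and 1 fell. From EarlyB to ExpB 1 of 7, 3 of 10 and 2 of 5 fell. All tested genes stood at 28.1% higher and 15% lower at the former step and 13.1% lower at the latter. The counts for RNA polymerase I, with 4 of 8 rising and 3 of 8 falling at the same steps, were not tested against these.

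The set holds FBL, NOP56 and NOP58 of the protein core of the box C/D snoRNPs, which place methyl groups on ribosomal RNA. From 8C to 16C and from 16C to Morula 3 of 3 rose each time, beside 5.54% and 28.1% of all tested genes. FBL, the methyltransferase, had 2.55 to 3.52 FPKM in 8C, 8.24, 15.1 and 30.7 in 16C and 39.7, 42.2 and 35.2 in morulae. The 3 stages did not overlap, and 16C was 5.84-fold above 8C (2.04 ± 0.28 SE, limma, adjusted p = 1.4e-05). From 16C to Morula the difference was 1.25 (adjusted p = 0.00087), and it was under the minimum without 16C 1 (0.82) and on the TPM scale (0.91). FBL did not fall by the call rule later, with 34.7 to 50.4 FPKM in ExpB.

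NOP58, a scaffold protein of the same particle, was far more abundant than FBL in the oocyte, at 181 and 241 FPKM, and had 61.9 to 96.7 in 8C with no called step between. In 16C it had 163, 328 and 797 FPKM, all above 8C (2.26 ± 0.34 SE, limma, adjusted p = 5.1e-05). Morulae had 753, 895 and 768 FPKM (1.1995, adjusted p = 0.0061), a range that 16C 3 lay within, and the call was lost without 16C 1 (0.65, adjusted p = 0.084), on the TPM scale (0.82), and after median-ratio (0.96) or quantile scaling (0.77). The later fall from Morula to EarlyB (-1.02, adjusted p = 0.023) was lost without Morula 2 (-0.95, adjusted p = 0.066) or EarlyB 2 (-0.88, adjusted p = 0.088). NOP56, the second scaffold, had 14.8 and 10.5 FPKM in MII, 7.99 to 16.3 in 8C, 31.3, 39.95 and 68.3 in 16C, and 148, 193 and 129 in morulae. Both steps were free of overlap (1.87 and 1.78, adjusted p = 1.6e-05 and 7.2e-06).

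The set holds NOP10 and DKC1 of the box H/ACA snoRNPs, which convert uridines of ribosomal RNA to pseudouridine. NOP10, a small core protein, had 16.9 to 34.3 FPKM in 8C and 78.0, 95.1 and 355 in 16C, which was 6.79-fold higher in the mean with no overlap (2.41 ± 0.40 SE, limma, adjusted p = 0.00017). DKC1, the pseudouridine synthase of the particle, had 25.1 to 37.5 FPKM in 8C and 28.3, 18.4 and 38.4 in 16C. The difference of NOP10 over DKC1 (log2) was 2.63 higher in 16C, without overlap, at p = 0.0571 in an exact two-sided permutation test, the smallest p that 3 against 4 libraries allow. It was the smallest of 7 such pairs compared, and its adjusted p was 0.4. DKC1 was highest in EarlyB, at 61.0, 86.1 and 135 FPKM, and fell to 26.6 to 34.4 in ExpB (-1.53 ± 0.29 SE, limma, adjusted p = 0.00022), where NOP10 kept 135 to 201 FPKM. NHP2, a further core protein outside the 44 genes, rose from MII to 2C (2.59), from 8C to 16C (3.34) and from 16C to Morula (2.43), to 803 ± 87.7 FPKM (SD, n = 3).

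Assembly factors of the small subunit made up the largest group, 17 genes. None was called lower up to Morula between neighbouring stages. Of the 17 genes 2 rose from 8C to 16C (11.8%, beside 5.54% of all tested genes). Into the morula 5 rose (29.4%), which is close to the 28.1% of all tested genes. In EarlyB 1 rose and 3 fell (5.88% and 17.6%, beside 14.7% and 12.4%), and from EarlyB to ExpB 7 fell (41.2%, beside 13.1%). UTP11, a protein of the small subunit processome, the particle that assembles on the nascent precursor, had 57.4 and 95.5 FPKM in MII and 460.1, 464, 456 and 446 in 2C. The 2C libraries lay close together and far above both MII libraries (2.61 ± 0.35 SE, limma, adjusted p = 6e-05). From 8C to 16C UTP11 went from 293 to 558 FPKM to 787, 1433 and 2904 (1.84 ± 0.31 SE, adjusted p = 0.00023), and its 16C mean of 1708 was exceeded among the 44 genes by that of NPM1 in MII (1804). It then fell from 688 to 902 FPKM in morulae to 169 to 294 in EarlyB (-1.70 ± 0.33 SE, adjusted p = 0.00024).

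UTP18, UTP20 and UTP23 also had high levels in the oocyte, and none of the 3 was called from MII to 2C. UTP18, part of a subcomplex that binds the precursor early, had 393 and 435 FPKM in MII, 228 to 309.8 in 2C, 93.3, 163 and 147 in morulae and 57.8 to 64.3 in EarlyB. Its differences were -1.01 from 2C to Morula (limma, adjusted p = 0.00031) and -1.11 from Morula to EarlyB (adjusted p = 0.00052). Both lay near the minimum: the former was -0.94 without 2C 1, -0.98 without 2C 2 and -0.77 without Morula 1, and the latter -0.96 without Morula 2. UTP20 had 71.5 to 97.9 FPKM in 2C, 33.2, 34.1 and 27.5 in morulae and 9.67 to 11.7 in ExpB. It was lower in Morula than in 2C (-1.35 ± 0.20 SE, adjusted p = 3.2e-06) and fell again from EarlyB to ExpB (-1.41 ± 0.20 SE, adjusted p = 1.1e-05).

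UTP23 had 209.5 and 151 FPKM in MII and 61.9 to 71.7 in 8C with no called step between, and then 98.1, 119 and 242 in 16C (1.11, limma, adjusted p = 0.0025). Without 16C 3 the difference was 0.73 and not called. It fell from 83.8 to 117 FPKM in morulae to 39.5 to 60.4 in EarlyB (-1.04, adjusted p = 0.0019), a call lost without EarlyB 2 (-0.88), Morula 1 (-0.98) or Morula 2 (-0.96). UTP25, highest in MII, had 18.1 and 19.5 FPKM there and 4.58 to 8.38 in ExpB, with no called step. UTP14A, whose stage means ran from 24.0 FPKM in ExpB to 51.0 in 8C, and UTP14C, a retrotransposed copy of it, were not called in any comparison either. The ratio of UTP14A to UTP14C stayed between 4.58 and 8.29 over the 26 libraries (median 5.95), and reads of the 2 copies may have been shared, so their separate values are uncertain.

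The small subunit factors that rose from 16C to Morula were RRP12, RRP9, UTP6, UTP3 and NOP14. RRP12, an export factor of the small subunit, had 1.08, 0.836 and 5.41 FPKM in 16C and 13.7, 11.9 and 17.3 in morulae, 5.85-fold higher and without overlap (2.38 ± 0.31 SE, limma, adjusted p = 7.9e-07). RRP9, a protein of the snoRNP that base-pairs with the precursor in the processome, had 1.39, 0.451 and 4.40 FPKM in 16C and 10.2, 16.7 and 8.90 in morulae (2.24 ± 0.35 SE, adjusted p = 1e-05). In both genes 16C 3 was the highest 16C library and still lay below every morula. The differences of UTP6, UTP3 and NOP14 at this step were 1.82, 1.79 and 1.49. UTP6 and UTP3 were present from the oocyte on, with means of 38.9 and 20.9 FPKM in MII. UTP6, the most abundant of these, had 36.0, 63.3 and 92.9 FPKM in 16C and 187, 271 and 189.8 in morulae.

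RRP7A was the scarcest of the 44 genes, between 0.0380 and 0.380 FPKM in every library through 16C. Morulae had 1.32, 0.946 and 1.03 FPKM and EarlyB 4.43, 3.64 and 2.06, with no overlap (1.03 ± 0.19 SE, limma, adjusted p = 0.00011). The call was lost without EarlyB 1 (0.85), EarlyB 2 (0.96) or Morula 2 (0.97), and after median-ratio (0.88) or quantile scaling (0.82). In ExpB it had 0.497 to 1.40 FPKM (-1.21 ± 0.18 SE, adjusted p = 1.3e-05). PWP2, a scaffold protein of the processome, had 0.552 to 0.808 FPKM in 2C, 2.78, 6.07 and 4.94 in morulae and 9.02, 9.65 and 7.67 in EarlyB. It was higher in Morula than in 2C (1.73, adjusted p = 1.9e-08), as were NOP9 (1.25) and UTP15 (1.19). The call of NOP9 was lost without Morula 3 (0.88) and after quantile normalization (0.63). That of UTP15 was lost without Morula 1 (0.95), on the TPM scale (0.78), and after median-ratio (0.91) or quantile scaling (0.74). UTP4, a partner of UTP15, was not called in any comparison, with stage means from 4.83 FPKM (4C) to 17.2 (Morula).

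From EarlyB to ExpB the 7 small subunit factors that fell were UTP20, NOP14 (-1.31), RRP9 (-1.25), RRP7A, UTP6 (-1.08), RRP12 (-1.08) and PWP2 (-1.06). Their EarlyB and ExpB libraries did not overlap, but 37.2% of all tested genes also had every ExpB library below every EarlyB library. UTP6, RRP12 and PWP2 lay close to the minimum difference. UTP6 was at -0.94 without EarlyB 1 and -0.99 without ExpB 1, RRP12 at -0.97 without EarlyB 1, and PWP2 at -0.998 without EarlyB 2 and -0.994 without ExpB 3, each under it. After median-ratio scaling, NOP14 (-0.96), RRP9 (-0.89), RRP7A (-0.93), UTP6 (-0.70), RRP12 (-0.74) and PWP2 (-0.72) were under it as well. Of the 7 genes, only UTP20 kept its call there.

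Of 11 assembly factors of the large subunit, 4 rose from 8C to 16C (36.4%, beside 5.54% of all tested genes) and 8 from 16C to Morula (72.7%, beside 28.1%), and none fell. From Morula to EarlyB 2 rose and 2 fell (18.2% each, beside 14.7% and 12.4%), and from EarlyB to ExpB 6 fell (54.5%, beside 13.1%). NOP16 had the largest called difference of the 44 genes from 8C to 16C, with 25.5, 27.2, 32.1 and 16.4 FPKM in 8C and 142, 402 and 699 in 16C. Every 16C library was far above the 8C range, and the mean was 16.4-fold higher (3.74 ± 0.40 SE, limma, adjusted p = 4.4e-07). Morulae had 582, 566 and 871 FPKM, which 16C 3 already overlapped, and EarlyB 217, 165 and 236 (-1.69 ± 0.43 SE, adjusted p = 0.0025).

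GRWD1, a chaperone of a ribosomal protein, went from 0.0643 to 0.321 FPKM in 8C to 2.19, 1.03 and 2.67 in 16C (1.24 ± 0.25 SE, limma, adjusted p = 0.0011) and 4.87, 8.21 and 6.99 in morulae (1.40 ± 0.26 SE, adjusted p = 8e-05). NOP2, an RNA methyltransferase of the large subunit, had 1.24 to 5.38 FPKM in 8C and 3.24, 11.1 and 11.2 in 16C, with 16C 1 inside the 8C range. Its call (1.10, adjusted p = 0.018) was lost without 8C 3 (0.82), 16C 2 (0.85) or 16C 3 (0.84). The step to morulae was clear, to 26.1, 47.6 and 37.3 FPKM (2.11 ± 0.33 SE, adjusted p = 9.3e-06).

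MRTO4, which is related to a protein of the ribosomal stalk and holds its place during assembly, made the largest change from 2C to Morula. It had 0.794, 0.891, 0.257 and 0.890 FPKM in 2C, 1.69, 1.38 and 10.1 in 16C, and 51.0, 55.2 and 46.7 in morulae. Morulae were 72.0-fold above 2C (4.94 ± 0.34 SE, limma, adjusted p = 1.7e-11) and 11.6-fold above 16C (3.64 ± 0.36 SE, adjusted p = 1.6e-08). EarlyB kept 35.2 to 45.1 FPKM, and ExpB had 10.1 to 14.6 (-1.53 ± 0.34 SE, adjusted p = 0.00097).

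PES1, BOP1 and WDR12, which form a complex needed to mature the RNA of the large subunit, were all called higher from 16C to Morula, and WDR12 also from 8C to 16C. WDR12 had 1.05, 0.327, 1.55 and 0.0726 FPKM in 8C and 1.13, 4.49 and 44.8 in 16C. The call from 8C to 16C (2.30 ± 0.59 SE, limma, adjusted p = 0.0095) rests on 16C 3, since 16C 1 lay inside the 8C range and the difference without 16C 3 was 1.05 (adjusted p = 0.08). Morulae had 24.4, 21.3 and 21.8 FPKM, below 16C 3 and above the other 16C libraries. The difference from 16C to Morula was 1.53 (adjusted p = 0.039), 2.78 without 16C 3 (adjusted p = 3e-06) and 0.56 without 16C 1 (adjusted p = 0.4). It was also lost without 16C 2 or without any single morula, with differences of 1.25 to 1.56. Against 2C, with 0.522 to 1.77 FPKM, morulae were higher with no overlap (3.60, adjusted p = 1e-05), and ExpB libraries still had 12.9 to 20.3.

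PES1 had 2.12, 3.33 and 2.58 FPKM in 16C, overlapping 8C (1.10 to 3.18), and 11.8, 20.9 and 11.9 in morulae (2.08 ± 0.26 SE, limma, adjusted p = 5.9e-07). EarlyB had 22.5, 24.3 and 27.2 FPKM and ExpB 7.28, 4.81, 6.06 and 5.13, a fall of 4.24-fold (-1.92 ± 0.25 SE, adjusted p = 3.2e-06). BOP1 was at 0.0743, 1.21 and 0.0794 FPKM in 16C, 4.37, 2.80 and 3.67 in morulae (1.74 ± 0.24 SE, adjusted p = 2.3e-06) and 10.7, 10.5 and 13.3 in EarlyB (1.44 ± 0.24 SE, adjusted p = 4.8e-05). It was the only one of the 3 to rise at both steps from 16C to EarlyB by the call rule. ExpB had 4.01 to 7.48 FPKM (-1.02, adjusted p = 0.0012), and that call was lost without EarlyB 3 (-0.92), ExpB 1 (-0.93), ExpB 2 (-0.99) or ExpB 3 (-0.99). It was also lost after median-ratio (-0.67) or quantile scaling (-0.77). The difference of WDR12 over PES1 was 2.00 higher in 16C than in 8C, but the libraries overlapped (exact permutation test, p = 0.229, adjusted p = 0.48 over the 7 pairs). That of WDR12 over BOP1 was 2.18 higher, also with overlap (exact permutation test, p = 0.114, adjusted p = 0.4).

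NOP53, an adaptor that brings the RNA exosome to the large subunit precursor, was highest in EarlyB, like POLR1G and BOP1. It had 1.45, 0.497 and 0.510 FPKM in 16C, 5.45, 7.28 and 4.52 in morulae and 25.9, 26.8 and 17.9 in EarlyB, with no overlap at either step (1.91 and 1.86, limma, adjusted p = 1.3e-05 and 3.5e-05). In ExpB it had 5.60 to 9.72 FPKM (-1.60 ± 0.29 SE, adjusted p = 0.00014).

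RRP1, which has the paralog RRP1B, had 0.452 and 1.40 FPKM in MII and 1.66, 4.70, 3.56 and 4.41 in 2C (1.24 ± 0.34 SE, limma, adjusted p = 0.021). This call was lost without MII 1 (0.87, adjusted p = 0.48), without 2C 2 (1.11, adjusted p = 0.059) and without 2C 4 (1.14, adjusted p = 0.057). RRP1B started at 23.9 and 27.5 FPKM in MII, had 9.69 to 11.8 in morulae, 23.9, 19.4 and 23.8 in EarlyB and 8.54, 6.17, 6.30 and 6.28 in ExpB. Its fall from EarlyB to ExpB (-1.58 ± 0.18 SE, adjusted p = 6.3e-07) had the smallest adjusted p of the 44 genes at that step. RRP1 rose from 16C to Morula (1.24) and fell from EarlyB to ExpB (-1.48) as well. RRP15 had 231 to 312 FPKM in morulae and 76.1 to 88.4 in EarlyB (-1.65 ± 0.26 SE, adjusted p = 2.1e-05), a level like the 76.3 and 77.0 of the MII libraries.

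**Figure D4:**
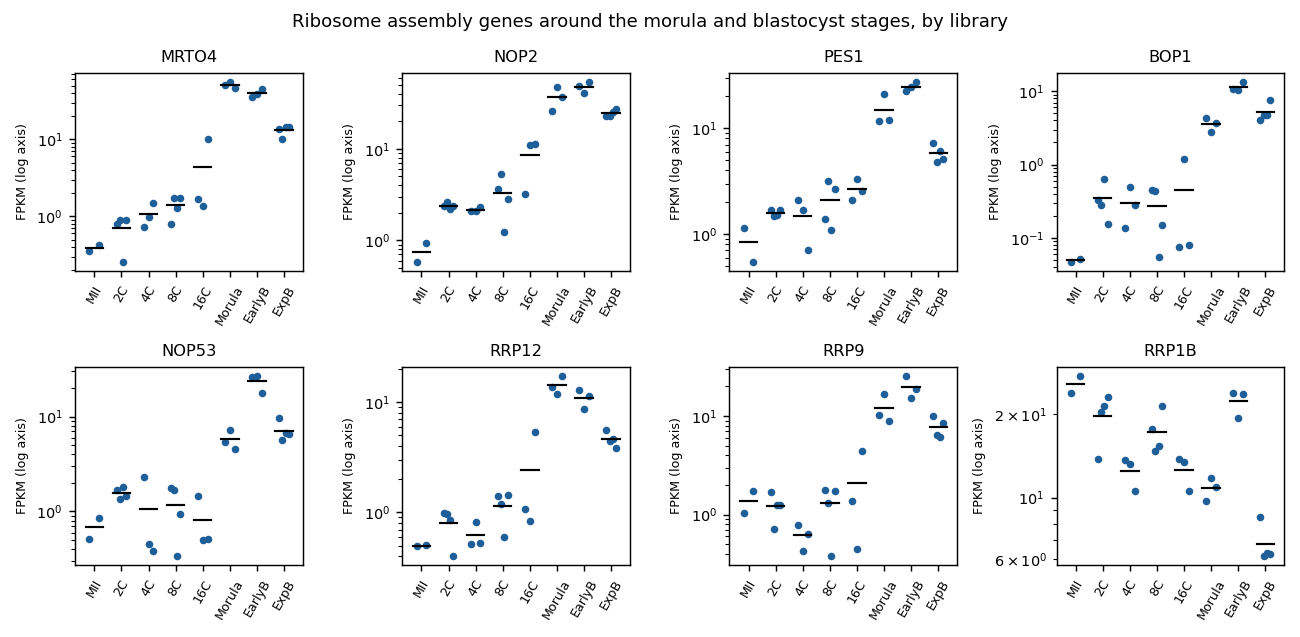
FPKM (log axis) of 8 assembly factors in each library, by stage, with points for libraries and bars for stage means. MRTO4 goes from 1.38 to 10.1 in 16C to 46.7 to 55.2 in morulae, BOP1 and NOP53 climb on to EarlyB, and RRP1B has high levels in both MII and EarlyB.

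The abundant nucleolar proteins NPM1 and NCL were not called in any of the 8 comparisons. NPM1, a chaperone that forms the outer layer of the nucleolus, had 2098 and 1509 FPKM in MII and 1177, 957, 904 and 932 in 2C, with no overlap (-0.85, limma, adjusted p = 0.0032, under the minimum difference). Its stage means then lay between 839 FPKM (ExpB) and 1321 (8C). Processed copies of NPM1 are common in mammalian genomes, and how reads shared with such copies were counted is not given in the sources used here. NCL, an RNA-binding protein that takes part in early processing, had 91.8 to 175 FPKM in MII to 8C, 224 to 331 in morulae and 349, 358 and 399.7 in EarlyB. RRP8, a methyltransferase of the large subunit RNA, stayed between 0.517 and 3.87 FPKM and was not called either.

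The rise at 16C was not even across libraries. For all 11 genes called higher from 8C to 16C the highest 16C library was 16C 3, and for 10 of them the lowest was 16C 1. Over all 44 genes 16C 3 was highest for 33, against 34.9% of all tested genes. Without 16C 3, 7 genes remained called of those 11, with differences of 3.23 for NOP16, 1.74 for NOP10, 1.66 for NOP58, 1.58 for FBL, 1.56 for NOP56, 1.36 for UTP11 and 1.07 for GRWD1. The calls of WDR12, NOP2, POLR1F and UTP23 were lost. With 8C and 16C fitted alone they were lost too (limma, adjusted p = 0.13, 0.18, 0.12 and 0.054), as was the fall of POLR1G (adjusted p = 0.087). With 16C and Morula fitted alone, the rises of NOP58, POLR1F and WDR12 at that step were lost (limma, adjusted p = 0.076, 0.064 and 0.18). In those 10 genes the order of the 16C libraries was that of the summed genome activation markers given above (317, 481 and 1716), and the part of that difference in the result was not tested.

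**Figure D5:**
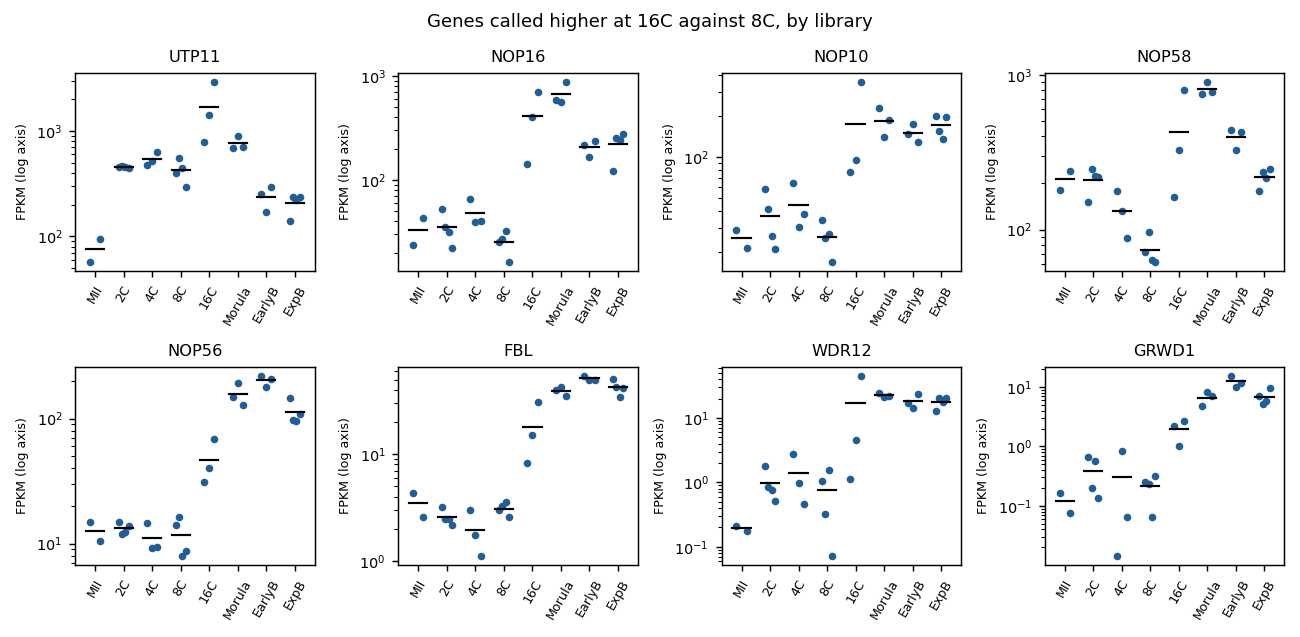
FPKM (log axis) of 8 of the 11 genes called higher from 8C to 16C, in each of the 26 libraries by stage, with points for libraries and bars for stage means. The 16C libraries are widely spread, from 787 to 2904 for UTP11 and from 1.13 to 44.8 for WDR12, whose lowest 16C library lies within the 8C range.

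Lists of further genes of the pathway gave the setting. Of 121 other biogenesis factors tested, 9 rose and 3 fell from MII to 2C (7.44% and 2.48%, near the 4.44% and 2.01% of all tested genes). From 8C to 16C 18 rose and 3 fell (14.9% and 2.48%, beside 5.54% and 2.01%), and from 16C to Morula 54 rose and 8 fell (44.6% and 6.61%, beside 28.1% and 15%). From Morula to EarlyB 11 rose and 19 fell (9.09% and 15.7%, near 14.7% and 12.4%), and from EarlyB to ExpB 30 fell (24.8%, beside 13.1%) and none rose. EXOSC1, a subunit of the RNA exosome, and PAK1IP1, a factor of the large subunit, rose at 16C (3.03 and 2.73), while PWP1 and RIOK1 fell (-1.34 and -1.23). GNL3L, WDR74 and EXOSC4 rose into the morula (3.61, 3.48 and 3.15), and NAT10, an RNA acetyltransferase, fell (-2.23). LAS1L, an endonuclease subunit that cuts the large subunit precursor, rose in EarlyB (2.33), and EXOSC1 and PNO1 fell (-2.33 and -2.23).

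Genes with the symbols of cytosolic ribosomal proteins were counted in the same way. They were picked by symbol, and the list also holds genes named as like ribosomal proteins, such as RPL7L1 and RPL22L1. Of 81 genes of this list tested, 2 rose and 19 fell from MII to 2C (2.47% and 23.5%, beside 4.44% and 2.01% of all tested genes). The 2 MII libraries differed in some of the 81 genes. MII 1 and MII 2 had 438 and 58.5 FPKM for RPS24 and 53.7 and 7.56 for RPL26. The 2C libraries had 10.1 to 59.1 and 4.60 to 16.9, ranges that hold the values of MII 2. RPS6 (79.5 and 59.2) and RPL7L1 (3.54 and 3.40) differed less, and the part of MII 1 in the count was not tested. From 8C to 16C 41 rose (50.6%, beside 5.54%) and from 16C to Morula 74 (91.4%, beside 28.1%), with none falling at those 2 steps. Their median difference from 2C to Morula was 3.98, against 1.17 for the 44 genes. In ExpB 9 of the 81 fell (11.1%), close to the 13.1% of all tested genes, and none rose. The lists were not tested against each other, and many ribosomal protein genes have processed copies whose reads cannot be told apart here. Beside the fall of the 17 genes in ExpB stand the summed trophectoderm markers, at 517 to 751 FPKM in EarlyB and 743 to 2047 in ExpB, and their part in the result was not tested.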

How the data were processed

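Poly(A) RNA of 26 libraries in 8 stages was analysed. The authors deposited FPKM per gene and library, for 30186 genes. The tools named, without role or order, were featureCounts 2.0.1, HISAT2 2.1.0, SAMtools 1.9 and fastp 0.23.4, per the submitters' processing notes. The genome build is not given in the sources used here, nor is the gene annotation, so no coordinates are printed. Whether counting used strand is not stated either, so reads of overlapping antisense genes may be included. Groups came from the sample titles.

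From the deposited FPKM, log2(FPKM + 1) was computed for the 15766 genes that reached 1 FPKM in 2 or more libraries. limma 3.58.1 in R 4.3.3 (lmFit on 8 stage means, contrasts.fit, eBayes with intensity trend, two-sided, 18 residual and 4.6 prior degrees of freedom) gave 8 comparisons, with Benjamini-Hochberg adjustment over all tested genes in each. Calls needed an adjusted p under 0.05 and a difference of at least 1. The fit was tested on simulated data. All 44 genes passed the filter, which a gene high in a single stage also passes. Depth was recovered from the steps of FPKM of small RNA genes. Reads carry no molecular identifiers. The files hold no sequences, and none are printed.

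The genes and lists were chosen with earlier results of these data known. Values per library are given for the 4 largest called rises and falls in each comparison, the RNA polymerase I subunits, NCL, NPM1, FBL, DKC1, BOP1, PES1 and WDR12, and the most and least abundant gene. Genes of the further lists are named, besides UBTF, RRN3 and MYC, if called and among the 3 largest differences in a direction. TAF1A, TAF1D, TCOF1, MYCN and NHP2 were singled out after their values were seen. The other genes of the set were described for completeness. Alternatives were another pseudocount, filters, TPM, median-ratio and quantile scaling, a fit of 2 stages alone, no trend, no minimum difference, a replicate block and each library left out.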

Additional observations from a re-analysis of the deposited data

Results flagged for a closer look

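Of 132 groups of 4 libraries tested (44 genes in the 2C, 8C and ExpB stages), 7 held a library that stood apart from the other 3 by Dixon's criterion, and chance gives about 1 in 20. POLR1C in 8C 4 was at 10.2 FPKM, the others at 6.68 to 7.23. UTP23 in 8C 1 was at 71.7 FPKM, the others at 61.9 to 63.5. In 2C, MRTO4 was at 0.257 FPKM in 2C 3 (others 0.794 to 0.891), RRP15 at 133 in 2C 2 (others 153 to 157) and UTP4 at 7.83 in 2C 1 (others 10.8 to 10.99). In ExpB, POLR1B was at 11.5 FPKM in ExpB 2 (others 8.99 to 9.37) and RRP1B at 8.54 in ExpB 1 (others 6.17 to 6.30).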

How the results depend on the processing

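Of 90 called differences of the 44 genes over the 8 comparisons, 57 kept their call under all 37 alternatives and 33 lost it under at least 1, and none changed sign. In all, 110 of 3327 repeated calls were lost, the cause of which was not tested beyond the fewer libraries or genes that some alternatives use. Counts of genes that moved by over 1.5 times were these. From MII to 2C the 4 higher became 8 on the TPM scale, 2 after quantile normalization and 2 without MII 1 and 16C 3 together, an alternative added after the data were seen, and the 0 lower became 1 with an FPKM of at least 5, 2 after median-ratio scaling, 1 after quantile normalization, 1 with 2 stages fitted alone and 1 without a minimum difference. From 8C to 16C the 11 higher became 7 with 2 stages fitted alone and 7 without MII 1 and 16C 3, and the 1 lower became 0 with 2 stages fitted alone. From 16C to Morula the 0 lower became 2 on the TPM scale, 1 after median-ratio scaling, 2 after quantile normalization and 4 without a minimum difference. From Morula to EarlyB the 4 higher became 7 with a pseudocount of 0.1 and 13 without a minimum difference, and the 7 lower became 4 after quantile normalization. From EarlyB to ExpB the 17 lower became 8 after median-ratio scaling and 30 without a minimum difference. From 2C to Morula the 2 lower became 4 on the TPM scale, 4 after quantile normalization and 5 without a minimum difference. Leaving out 1 library at a time gave 2 to 4 higher and 0 to 1 lower from MII to 2C, 7 to 13 and 0 to 1 from 8C to 16C, 17 to 25 and 0 to 1 from 16C to Morula, 4 to 5 and 4 to 7 from Morula to EarlyB, 16 to 18 lower from EarlyB to ExpB, and 22 to 24 and 1 to 2 from 2C to Morula. Deviations of same-numbered libraries of neighbouring stages correlated at over 0.1 in 4 of 20 pairs (range -0.09 to 0.396). They included each pair of replicate 1 from MII to 8C: MII 1 with 2C 1 (0.396), 2C 1 with 4C 1 (0.228) and 4C 1 with 8C 1 (0.192). A pair of unlike number, 4C 2 with 2C 4, reached 0.338, and whether the numbers mark a batch was not tested. The replicate block changed 1 call, POLR1H from 2C to Morula (0.88, limma, adjusted p = 0.04). Depth (16.0 to 35.6 in 1e6 reads a library) limits mainly genes below 1 FPKM, such as BOP1, GRWD1 and RRP7A from MII to 8C.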
